A study of Mus musculus with 12 samples.

Results

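The genes described here are 10 genes of bone mineralization: *Alpl*, *Phospho1*, *Enpp1*, *Ank*, *Slc20a1*, *Slc20a2*, *Ibsp*, *Spp1*, *Mgp* and *Ifitm5*. They were taken by name from the 23284 gene names listed for sorted mouse osteoblasts and the 24346 listed for MC3T3-E1 cells, and all 10 were listed in each of the 12 libraries. Bone mineral forms from calcium and inorganic phosphate, partly inside vesicles that osteoblasts bud into the collagen matrix, and it is held back by inorganic pyrophosphate. Tissue-nonspecific alkaline phosphatase (*Alpl*) splits pyrophosphate into phosphate, the phosphatase encoded by *Phospho1* releases phosphate from phosphocholine within the vesicles, *Enpp1* makes pyrophosphate outside the cell and *Ank* is needed for its export. *Slc20a1* and *Slc20a2* encode the sodium-dependent phosphate transporters PiT-1 and PiT-2. Bone sialoprotein (*Ibsp*) can nucleate mineral, whereas osteopontin (*Spp1*) and matrix Gla protein (*Mgp*) restrain its growth, and *Ifitm5* encodes a small membrane protein of osteoblasts that is mutated in a form of osteogenesis imperfecta.

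RNA was sequenced in 2 experiments. In the first, female Col2.3-ECFP mice aged 12 weeks at the start, in which a fragment of the type I collagen promoter drives a cyan fluorescent protein in mature osteoblasts, received vehicle (3 libraries) or parathyroid hormone, PTH (1-34), at 40 µg/kg on 5 days of each week for 3 weeks (3 libraries), and osteoblasts negative for 7AAD, lineage markers and CD45 but positive for ECFP were sorted 24 h after the last injection. In the second, MC3T3-E1 cells, a clonal preosteoblast line from mouse calvaria, carried a retroviral puromycin-resistance vector that was either empty (mock, 3 libraries) or held mouse *Slpi* cDNA (3 libraries), and RNA was taken from subconfluent cultures after selection. *Slpi* encodes a secreted inhibitor of serine proteases. The number of mice per sorted library and whether the MC3T3-E1 libraries came from separate cultures are not given in the sources used here, so the *p* values measure the spread between these libraries, which may be technical. Levels are FPKM, fragment numbers scaled to transcript length and to the mapped reads of a library, as deposited. Changes are log2 fold changes on log2(FPKM + 1) ± standard error, and a gene is called higher or lower at an adjusted *p* under 0.05 from limma over all genes tested.

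The osteoblast label fitted most of the 10 osteoblast markers checked, since *Bglap*, *Sparc*, *Sp7* and *Runx2* were detected in all sorted libraries, but *Col1a1* and *Col1a2* were listed at 0 in vehicle replicate 3 and in the 3 PTH libraries, against 24170.4 to 26654.7 FPKM in vehicle replicates 1 and 2. In MC3T3-E1 cells, the 10 osteoblast markers summed to 15670 to 16270 FPKM in mock and to 17010 to 18440 FPKM in *Slpi*-overexpressing libraries. Of these markers 9 were tested. *Sp7* was at 30.9, 29.8 and 29.3 FPKM in mock cells, whereas *Bglap* stayed between 1.05 and 2.85 FPKM and *Col13a1* was at 0 in the MC3T3-E1 libraries. *Slpi* itself had a log2 fold change of 3.15 with PTH and 2.35 in the *Slpi*-overexpressing cells (adjusted *p* = 0.0131 and 3.92e-08 in limma). Its levels were far apart in the 2 experiments. It was at 1.64, 2.38 and 2.62 FPKM with vehicle and at 37.5, 19.8 and 27.2 FPKM with PTH. In mock cells it was already at 377, 396 and 386 FPKM, and in *Slpi*-overexpressing cells at 2105, 1973 and 1848 FPKM. The number of reads is unknown, and the depth relative to the first control library ranged from 0.787 to 1.4 in sorted osteoblasts and from 0.869 to 1 in MC3T3-E1 cells. RNA of other cells differed among the sorted libraries. The summed FPKM of 10 neutrophil markers lay between 377 and 469.8 in the vehicle libraries and was 2362, 1971 and 702 in PTH replicates 1, 2 and 3. Of these markers 7 were called higher with PTH, against 6.38% of all genes tested. Heart muscle markers summed to 3545 FPKM in PTH replicate 2 and to between 0.362 and 19.9 in the other libraries.

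PTH was followed by moderately higher levels of mineralization genes of several kinds. Of the 10 genes, 5 were called higher in sorted osteoblasts, namely *Spp1*, *Mgp*, *Alpl*, *Ank* and *Slc20a1*, against 6.38% of the 13004 genes tested. The ratios of the group means of these 5 genes ran from 1.37 for *Slc20a1* to 2.01 for *Mgp*. No member reached 2-fold on the log2 scale, where 0.869% of all genes were at least 2-fold higher and 3.78% lower at an adjusted *p* under 0.05 (1.24% and 4.35% at an unadjusted *p* under 0.05). No member was called lower by limma, where 8.85% of all genes were, and all 8 members with an unadjusted *p* under 0.05 were higher. The median log2 fold change was 0.44 over the 10 members and 0.01 over all genes tested. For 8 of the 10 members each PTH library lay above each vehicle library, which held for 19.5% of all genes, and for none did each lie below, which held for 20.9%.

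**Figure D1:**
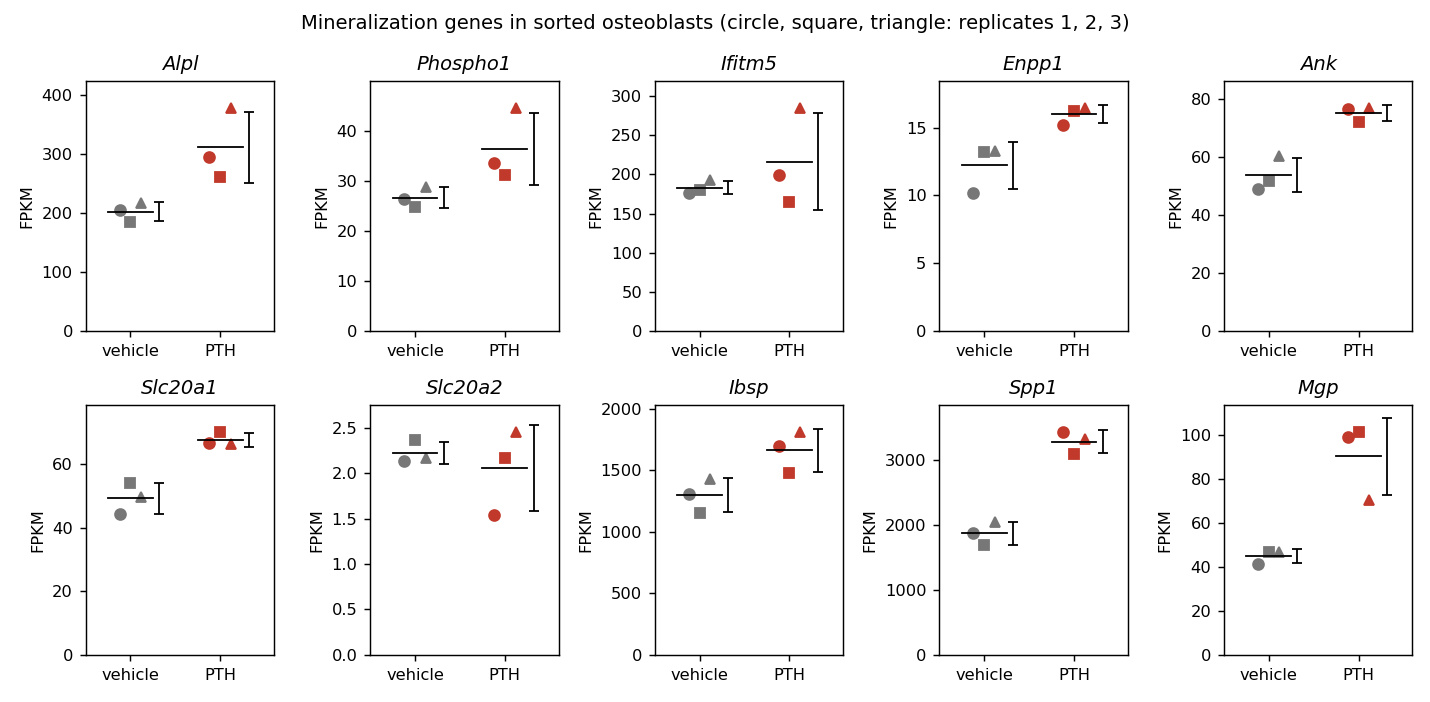
FPKM of the 10 mineralization genes in each library of sorted osteoblasts, with a separate linear axis from 0 for each gene; symbols mark replicates, horizontal lines the group means and bars ± SD (n = 3). For *Spp1* the PTH libraries lie between 3085 and 3437 FPKM, above the vehicle libraries at 1690.3 to 2042, whereas the groups overlap for *Slc20a2* and *Ifitm5*.

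Among the phosphatases, *Alpl* was at 205, 185 and 216 FPKM with vehicle and at 294, 261 and 378 FPKM with PTH. The groups did not overlap, and PTH replicate 3 was the highest of the 6 libraries. The log2 fold change of *Alpl* was 0.60 ± 0.149 (adjusted *p* = 0.0398 in limma), a rise of 53.9% in the mean. *Phospho1* followed the same order of libraries at a lower level, 26.3, 24.7 and 28.8 FPKM with vehicle and 33.6, 31.1 and 44.6 FPKM with PTH. Its groups did not overlap either, but the log2 fold change of 0.42 ± 0.150 missed the threshold (adjusted *p* = 0.1 in limma). *Phospho1*, on chromosome 11 from 95824499 to 95832140, shares 84.2% of its annotated exon bases with *Abi3* on the opposite strand and 89.6% with *Zfp652* on its own strand. On the shared bases, reads of *Abi3* and *Phospho1* cannot be told apart where strand is not read. Reads of *Zfp652* and *Phospho1* cannot be told apart there even where strand is read. With PTH, *Abi3* had a log2 fold change of 0.54 (adjusted *p* = 0.103 in limma) and *Zfp652* one of 0.17 (adjusted *p* = 0.555 in limma).

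Of the genes of pyrophosphate supply, the RNA levels of 2 were compared. *Ank*, the multipass membrane protein of pyrophosphate export, was at 49.0, 51.8 and 60.2 FPKM with vehicle and at 76.4, 71.9 and 76.9 FPKM with PTH. All PTH libraries were above all vehicle libraries, with a log2 fold change of 0.48 ± 0.106 (adjusted *p* = 0.0313 in limma). *Enpp1*, which makes pyrophosphate from nucleotides at the cell surface, was at 10.2, 13.2 and 13.3 FPKM with vehicle and at 15.2, 16.3 and 16.5 FPKM with PTH. Here too the groups were apart, but the log2 fold change of 0.37 ± 0.129 missed the threshold (adjusted *p* = 0.0972 in limma). Thus genes whose products remove pyrophosphate and genes whose products supply it had point estimates in the same direction. Within a library, the ratio of *Alpl* to *Enpp1* was 20.1, 14.0 and 16.3 with vehicle and 19.3, 16.0 and 23.0 with PTH, and that of *Alpl* to *Ank* was 4.18, 3.57 and 3.59 with vehicle and 3.85, 3.62 and 4.91 with PTH. Both ratios overlapped between the groups (two-sided exact permutation test, *p* = 0.50 for each).

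Of the phosphate transporters, one was called and the other was not. *Slc20a1* was at 44.2, 54.0 and 49.7 FPKM with vehicle and at 66.6, 70.3 and 66.2 FPKM with PTH, without overlap, and rose by a log2 fold change of 0.45 ± 0.103 (adjusted *p* = 0.0334 in limma). Without PTH replicate 2, the library with heart muscle RNA, the log2 fold change was 0.43 and the limma adjusted *p* 0.061, within a range of 0.0307 to 0.125 over 15 alternative settings. *Slc20a2* was at 2.13, 2.36 and 2.17 FPKM with vehicle and at 1.54, 2.17 and 2.46 FPKM with PTH, and its groups overlapped. Its log2 fold change was -0.09 ± 0.170 (adjusted *p* = 0.743 in limma). The ratio of *Slc20a1* to *Slc20a2* within a library was 20.8, 22.9 and 22.9 with vehicle and 43.2, 32.4 and 26.9 with PTH, 1.51-fold higher with PTH. All 3 PTH libraries lay above the vehicle libraries, which gives *p* = 0.10 in a two-sided exact permutation test, the smallest that 3 against 3 libraries allow.

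Of the mineral-binding matrix proteins, osteopontin and matrix Gla protein had the largest changes among the 10 members. *Spp1* was at 1878, 1690.3 and 2042 FPKM with vehicle and at 3437, 3085 and 3321 FPKM with PTH. The lowest PTH library exceeded the highest vehicle library by far more than the libraries of either group differed from each other, with a log2 fold change of 0.81 ± 0.107 (adjusted *p* = 0.0139 in limma). *Mgp* was at 41.2, 46.8 and 46.6 FPKM with vehicle and at 99.1, 101 and 70.2 FPKM with PTH, and in contrast to *Alpl* its lowest PTH value was in replicate 3. Its log2 fold change of 0.98 ± 0.157 (adjusted *p* = 0.0174 in limma) lay just under 2-fold on this scale, although the means differed 2.01-fold. *Ibsp* was at 1309, 1153 and 1429 FPKM with vehicle and at 1694, 1475 and 1814 FPKM with PTH. These groups were apart by a small margin, and the log2 fold change of 0.36 ± 0.123 missed the threshold (adjusted *p* = 0.094 in limma).

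Ratios within the matrix group were compared next. The ratio of *Ibsp* to *Spp1* in one library was 0.697, 0.682 and 0.7 with vehicle and 0.493, 0.478 and 0.546 with PTH, so that all PTH libraries were lower (0.728-fold, two-sided exact permutation test, *p* = 0.10). The ratio of *Ibsp* to *Mgp* was 31.7, 24.7 and 30.7 with vehicle and 17.1, 14.5 and 25.8 with PTH, with the third PTH library inside the vehicle range (*p* = 0.20 in the same exact test). *Phospho1* to *Alpl* was 0.128, 0.134 and 0.133 with vehicle and 0.114, 0.119 and 0.118 with PTH, lower in all PTH libraries (0.889-fold, exact *p* = 0.10). After adjustment over the 6 ratios compared, no exact *p* was below 0.20.

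*Ifitm5* did not pass the test with PTH. It was at 176, 180.0 and 192 FPKM with vehicle and at 199, 165 and 285 FPKM with PTH, where replicate 2 was below and replicate 3 above every vehicle library. The log2 fold change was 0.20 ± 0.191 (adjusted *p* = 0.48 in limma), and it was -0.01 without PTH replicate 3. The annotated exons of *Ifitm5* share 29.7% of their bases with the predicted gene *Gm45717* on the same strand.

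The 5 calls depended on which libraries were compared. Leaving out vehicle replicate 1 or vehicle replicate 2 left 0 members called by limma, with 5 and 6 at an unadjusted *p* under 0.05, while 1 and 0 of all genes tested were called. Without vehicle replicate 3 there were 3 (*Ank*, *Mgp* and *Spp1*), without PTH replicate 1 only *Spp1*, and without PTH replicate 2 or 3 there were 4. Over these 6 fits the log2 fold changes of the called genes ranged from 0.74 to 0.88 for *Spp1*, 0.88 to 1.14 for *Mgp*, 0.46 to 0.72 for *Alpl*, 0.42 to 0.57 for *Ank* and 0.38 to 0.52 for *Slc20a1*, and their limma adjusted *p* values reached 0.0768, 0.0851, 0.141, 0.123 and 0.125. Rescaling each library to the same sum of FPKM left 3 members called (*Alpl*, *Mgp* and *Spp1*), with 479 higher and 1095 lower genes in all, against 830 and 1151 on the deposited scale; *Col1a1* and *Col1a2* held 12.3% and 11.5% of that sum in vehicle replicates 1 and 2 and none in the others.

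Markers of other cells moved with PTH as well. The part of other cells in the changes of the members, and of the further pathway genes such as *Anxa1* given below, was not tested. The counts called are to be read against 6.38% of all genes called higher and 8.85% called lower. Chondrocyte markers were called higher for 4 of 7 (*Acan*, *Sox9*, *Comp* and *Chad*), with sums of 790 to 932 FPKM with vehicle and 1019 to 1171 FPKM with PTH, beside *Mgp*, which cartilage also expresses. Of 8 osteoclast markers, 3 were tested, with a median log2 fold change of 0.767, and *Ctsk* was called higher. The sums over the list were 159 to 167 FPKM with vehicle and 262 to 295 FPKM with PTH, beside *Spp1*, which osteoclasts express too. Within the list, *Calcr*, *Dcstamp* and *Oscar*, which were not among the 3 tested, were at 0 in all vehicle libraries and at or below 0.347 FPKM with PTH. Neutrophil markers were lowest in PTH replicate 3 among the PTH libraries, the library in which *Alpl*, *Phospho1*, *Ibsp* and *Ifitm5* were highest. Other lists gave 3 of 5 lymphocyte markers lower, 1 of 5 osteocyte, 1 of 5 megakaryocyte and 1 of 7 stromal and adipocyte markers higher, and 0 calls by limma among 7 macrophage, 6 erythroid, 2 endothelial, 5 smooth muscle and pericyte and 7 heart muscle markers. In sorted cells, more cells of a type and more RNA per cell cannot be told apart.

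The wider mineralization pathway held 54 further genes in 5 lists, of which 46 were tested in sorted osteoblasts, 9 called higher and 1 lower with PTH, where 6.38% and 8.85% of all genes were; the counts of the single lists are to be read against the same shares. Matrix vesicle and phosphocholine genes gave 4 of 11 higher. Among them were 3 annexin genes, whose products bind membranes in the presence of calcium and are abundant in matrix vesicles. *Anxa1* was at 193, 204 and 212 FPKM with vehicle and at 501, 426 and 396 FPKM with PTH (log2 fold change 1.11), *Anxa2* and *Anxa5* had log2 fold changes of 0.69 and 0.73, and *Anxa6* had one of 0.21 that missed the threshold. *Enpp6*, which releases phosphocholine, rose from 14.7, 12.2 and 16.8 to 25.8, 22.0 and 33.5 FPKM (log2 fold change 0.84, adjusted *p* = 0.0299 in limma), and the ethanolamine kinase gene *Etnk1* fell (-0.69, adjusted *p* = 0.0429 in limma).

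Among 16 tested mineral-binding matrix proteins and their modifying enzymes, 4 were called higher with PTH. *Vkorc1* and *Ggcx*, whose products recycle vitamin K and carboxylate Gla proteins such as MGP, had log2 fold changes of 0.95 and 0.67 (adjusted *p* = 0.0133 and 0.0476 in limma), and *Vkorc1* went from 150.4, 157 and 180.3 FPKM to 303, 298 and 341 FPKM. The matrix proteoglycan genes *Bgn* and *Omd* had log2 fold changes of 0.74 and 0.65. *Dmp1*, a neighbor of *Ibsp* on chromosome 5, was at 781, 745 and 874 FPKM with vehicle and at 1068, 923 and 1169 FPKM with PTH (0.39, adjusted *p* = 0.0673 in limma). Of 14 tested phosphate and pyrophosphate genes, only *Nt5e*, the ectonucleotidase that makes adenosine from AMP, was called higher (0.57, adjusted *p* = 0.021 in limma). None of the 4 tested relatives of *Ifitm5* was called by limma, with 2 at an unadjusted *p* under 0.05, *Ifitm1* at -0.45 and *Ifitm3* at 0.32, and *Ifitm6* at 1.14 had the next smallest *p*. *Phospho2*, the only tested relative of *Alpl* and *Phospho1*, had a log2 fold change of -0.64 (adjusted *p* = 0.0704 in limma).

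In *Slpi*-overexpressing MC3T3-E1 cells, 4 of the 10 genes were several-fold higher. *Ifitm5*, *Ibsp*, *Phospho1* and *Alpl* were at least 2-fold higher than in mock cells, that is 4 of the 9 members tested, against 0.733% of the 11466 genes tested (0.75% at an unadjusted *p* under 0.05), and no member was at least 2-fold lower, where 0.384% of all genes were. By fold they ranked 5, 7, 8 and 22 of the 84 genes called at least 2-fold higher. The phosphate transporters rose slightly, *Spp1* fell slightly, and *Ank* and *Mgp* did not pass the test. At any fold, 6 members were called higher and 1 lower, but 31.9% and 28.9% of all genes were called in the same directions in these closely spaced libraries, so the count at any fold is to be read against these shares. Of the 9 members tested, 6 lay higher in all *Slpi* libraries than in all mock libraries and 1 lower, against 34.9% and 32.2% of all genes. The median log2 fold change was 0.30 over the 9 members tested and 0.00 over all genes.

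**Figure D2:**
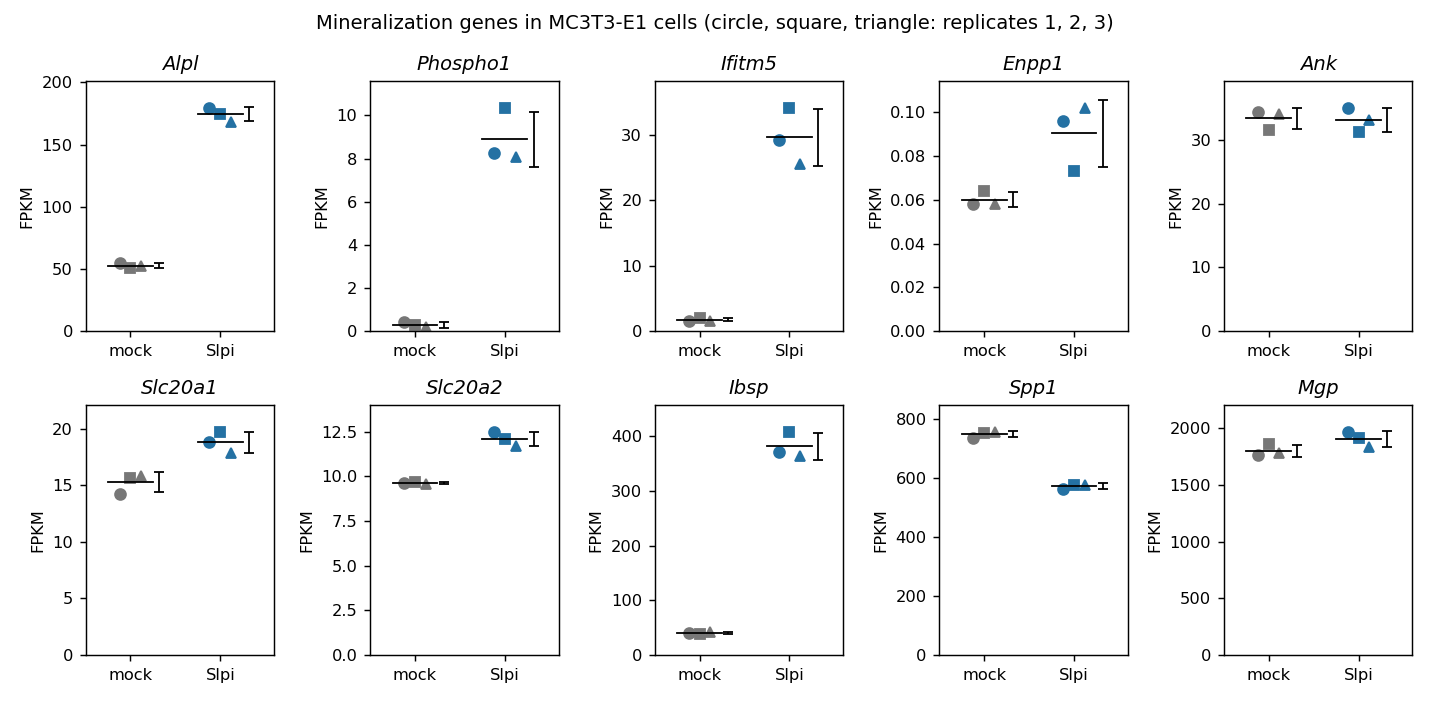
FPKM of the 10 mineralization genes in each library of mock and *Slpi*-overexpressing MC3T3-E1 cells, with a separate linear axis from 0 for each gene; symbols mark replicates, horizontal lines the group means and bars ± SD (n = 3). *Ibsp* lies at 364 to 409 FPKM in the *Slpi* libraries and at 37.9 to 42.5 FPKM in the mock libraries, while the groups overlap for *Ank* and *Mgp* and *Enpp1* stays below 0.11 FPKM.

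*Ibsp* had the highest *Slpi*-induced level of these 4 genes, at 39.9, 37.9 and 42.5 FPKM in mock cells and at 372, 409 and 364 FPKM in *Slpi*-overexpressing cells. The means differed 9.51-fold, with a log2 fold change of 3.22 ± 0.0553 (adjusted *p* = 3.21e-08 in limma). *Alpl* was at 54.6, 50.4 and 52.8 FPKM in mock cells and at 180, 175 and 168 FPKM in *Slpi*-overexpressing cells, a 3.31-fold difference of means and a log2 fold change of 1.71 ± 0.0399 (adjusted *p* = 6.36e-08 in limma). For both genes the gap between the groups was many times the range within either group.

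*Ifitm5* was close to the detection limit used here in mock cells, at 1.61, 2.05 and 1.62 FPKM, and reached 29.3, 34.1 and 25.5 FPKM in *Slpi*-overexpressing cells. The means differed 16.8-fold, and the log2 fold change was 3.47 ± 0.104 (adjusted *p* = 2.18e-07 in limma). *Phospho1* was below it, at 0.449, 0.288 and 0.18 FPKM in mock cells, and at 8.26, 10.4 and 8.08 FPKM in *Slpi*-overexpressing cells. Because of the low mock level its fold is poorly fixed: the means differed 29.1-fold, the log2 fold change was 2.92 ± 0.108 (adjusted *p* = 6.8e-07 in limma), and it was 4.52 with a pseudocount of 0.1. *Abi3*, which overlaps *Phospho1* on the opposite strand, went from 1.03, 0.925 and 0.967 to 21.3, 23.9 and 18.3 FPKM, a log2 fold change of 3.48 (adjusted *p* = 8.21e-08 in limma), and *Zfp652* on its own strand had one of 0.18. The labels name a stranded kit for these libraries, but whether strand was used to assign reads is not given in the sources used here. How much of the *Phospho1* value is *Abi3*, or the reverse, is therefore uncertain. Strand cannot separate *Phospho1* from *Zfp652* on their shared bases, and *Zfp652* was at 13.9, 13.3 and 13.7 FPKM in mock cells.

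The sequences upstream of these 4 genes are shown because they were the members that rose at least 2-fold in the *Slpi*-overexpressing cells. They come from the RefSeq promoter windows for GRCm38.p6, which held 8 of the 10 members, read 5′ to 3′ on the strand of the gene and ending just before the annotated gene start of GENCODE M21. Capitals mark matches, on either strand, to 5 motifs searched by their letters in the 250 bases before the RefSeq start: TGTGGT, the core read by RUNX factors; GGGCGG, read by SP factors; CTTTGA, the core read by TCF and LEF factors; TAATTA, read by many homeodomain factors; and TATAAA, read by the general initiation factors. *Ifitm5* is on chromosome 7 (chr7:140950292-140950493, minus strand), *Ibsp* on chromosome 5 (chr5:104299037-104299170, plus strand), *Phospho1* on chromosome 11 (chr11:95824250-95824498, plus strand) and *Alpl* on chromosome 4 (chr4:137796385-137796634, minus strand, before the more distant of its RefSeq starts).
Ifitm5: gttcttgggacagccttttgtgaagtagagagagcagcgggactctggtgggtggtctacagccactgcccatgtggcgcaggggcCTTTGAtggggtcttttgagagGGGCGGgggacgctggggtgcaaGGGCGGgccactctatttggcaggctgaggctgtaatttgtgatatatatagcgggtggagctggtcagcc
Ibsp: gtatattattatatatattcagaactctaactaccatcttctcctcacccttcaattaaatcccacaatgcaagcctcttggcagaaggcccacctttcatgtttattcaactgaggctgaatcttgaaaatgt
Phospho1: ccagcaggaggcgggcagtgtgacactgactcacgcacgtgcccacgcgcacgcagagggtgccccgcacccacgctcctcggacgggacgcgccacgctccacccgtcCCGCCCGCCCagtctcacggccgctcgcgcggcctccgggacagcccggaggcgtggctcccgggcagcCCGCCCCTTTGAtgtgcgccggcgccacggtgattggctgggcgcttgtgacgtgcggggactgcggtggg
Alpl: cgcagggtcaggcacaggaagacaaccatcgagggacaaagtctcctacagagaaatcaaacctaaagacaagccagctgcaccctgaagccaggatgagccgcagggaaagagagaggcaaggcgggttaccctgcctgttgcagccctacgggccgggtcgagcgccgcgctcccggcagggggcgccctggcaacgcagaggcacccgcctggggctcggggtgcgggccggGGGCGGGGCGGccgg

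*Ifitm5*, *Phospho1* and *Alpl* held GGGCGG or its reverse complement CCGCCC, as did 32.7% of the 32851 windows, at 142 and 119 bases before the RefSeq start of *Ifitm5*, at 141, 137 and 72 bases before that of *Phospho1* and at 15 and 10 bases before that of *Alpl*, the nearest copies overlapping each other in *Phospho1* and *Alpl*. *Ifitm5* and *Phospho1* also held CTTTGA, at 164 and 66 bases before the start, a motif of 13.8% of windows. TGTGGT and TAATTA, in 14.0% and 4.84% of windows, did not occur in the windows of these 4 genes. TATAAA stands, in either direction, in 12.4% of windows and was not in the stretches printed here. These matches describe letters and not binding.

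The phosphate transporter genes both rose in *Slpi*-overexpressing cells. *Slc20a1* was at 14.2, 15.7 and 15.9 FPKM in mock cells and at 18.8, 19.8 and 17.9 FPKM in *Slpi*-overexpressing cells, with a log2 fold change of 0.29 ± 0.0536 (adjusted *p* = 0.00191 in limma). *Slc20a2* was at 9.61, 9.67 and 9.57 FPKM in mock cells and at 12.5, 12.1 and 11.7 FPKM in *Slpi*-overexpressing cells, with a log2 fold change of 0.30 ± 0.0408 (adjusted *p* = 3.23e-04 in limma). The groups were apart for both genes. Their ratio within a library was 1.48, 1.62 and 1.66 in mock cells and 1.5, 1.64 and 1.53 in *Slpi*-overexpressing cells, overlapping (two-sided exact permutation test, *p* = 0.90).

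Of the genes of pyrophosphate supply, *Ank* did not pass the test and *Enpp1* was too low to be tested. *Ank* was at 34.4, 31.6 and 34.1 FPKM in mock cells and at 35.0, 31.3 and 33.2 FPKM in *Slpi*-overexpressing cells, with a log2 fold change of -0.01 ± 0.0512 (adjusted *p* = 0.891 in limma). *Enpp1* was listed at 0.058, 0.064 and 0.058 FPKM in mock cells and at 0.096, 0.073 and 0.102 FPKM in *Slpi*-overexpressing cells, far below the minimum of 1 FPKM, and was not tested. The ratio of *Alpl* to *Ank* was higher in all *Slpi* libraries than in all mock libraries, 5.12, 5.58 and 5.08 against 1.59, 1.6 and 1.54, a 3.33-fold difference (two-sided exact permutation test, *p* = 0.10). The ratio of *Alpl* to *Enpp1* was 2.22-fold higher but rests on the low values of *Enpp1*.

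Of the inhibitors of mineral growth, *Spp1* fell and *Mgp* did not pass the test. *Spp1* was at 737, 754 and 758 FPKM in mock cells and at 563, 579 and 578 FPKM in *Slpi*-overexpressing cells, and all 3 *Slpi* libraries were lower (log2 fold change -0.39 ± 0.0304, adjusted *p* = 2.21e-05 in limma). *Mgp*, the most abundant member in these cells, was at 1766, 1863 and 1780 FPKM in mock cells and at 1973, 1913 and 1834 FPKM in *Slpi*-overexpressing cells, with overlapping groups (0.08 ± 0.0407, adjusted *p* = 0.119 in limma). The sign of the *Mgp* estimate turned to -0.10 under quantile normalization and to -0.01 when each library was rescaled to the same sum. The ratio of *Ibsp* to *Spp1* in one library was 0.0541, 0.0502 and 0.0561 in mock cells and 0.66, 0.706 and 0.629 in *Slpi*-overexpressing cells, a 12.4-fold difference, and that of *Ibsp* to *Mgp* differed 9.0-fold, without overlap in either (two-sided exact permutation test, *p* = 0.10 for both).

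**Figure D3:**
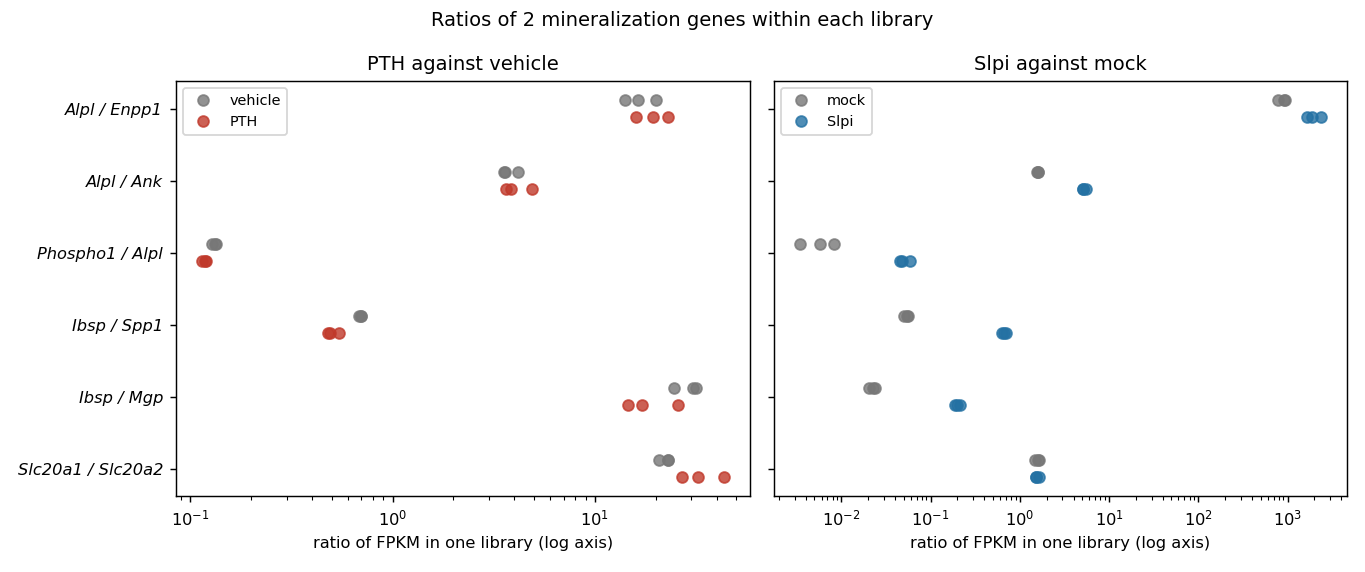
Ratios of the FPKM of 2 mineralization genes within each library on log axes, with 3 control libraries in grey and 3 treated libraries in color for PTH against vehicle (left) and *Slpi* against mock (right). The ratio of *Ibsp* to *Spp1* is lower in all PTH libraries than in the vehicle libraries (0.478 to 0.546 against 0.682 to 0.7) and higher in all *Slpi* libraries than in the mock libraries (0.629 to 0.706 against 0.0502 to 0.0561).

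The calls in *Slpi*-overexpressing cells were repeated under other settings. The same 7 members were called by limma under each of 15 alternative fits, with *Mgp* added under quantile normalization and without *Slpi* replicate 3, and the 4 members at least 2-fold higher numbered 4 under each. Over the alternatives the limma adjusted *p* ranged up to 0.00121 for *Ifitm5*, 0.00137 for *Phospho1*, 5.91e-04 for *Ibsp* and 6.61e-04 for *Alpl*. With libraries rescaled to the same sum, 2464 of 12075 genes tested were called higher and 4574 lower. On the deposited scale, 3658 of 11466 were called higher and 3315 lower. Of 9 osteoblast markers tested, 7 were called higher, where 31.9% of all genes were, and the median log2 fold change of the 9 was 0.612. Among the 7 was *Sp7*, which went from 30.9, 29.8 and 29.3 to 88.3, 84.8 and 84.3 FPKM. Of 7 chondrocyte markers only *Acan* was at 0 in all 6 libraries. Among the 3 tested, 2 were called higher and 1 lower, where 31.9% and 28.9% of all genes were. The chondrocyte sums were 128.7 to 140.2 FPKM in mock and 119.8 to 138.8 FPKM in *Slpi*-overexpressing cells. Osteocyte markers summed to at most 1.69 FPKM in any library. Smooth muscle and pericyte markers, 3 of 3 tested, were called lower, where 28.9% of all genes were. Their sums were 835 to 860.5 FPKM in mock and 477 to 521.5 FPKM in *Slpi*-overexpressing cells.

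**Figure D4:**
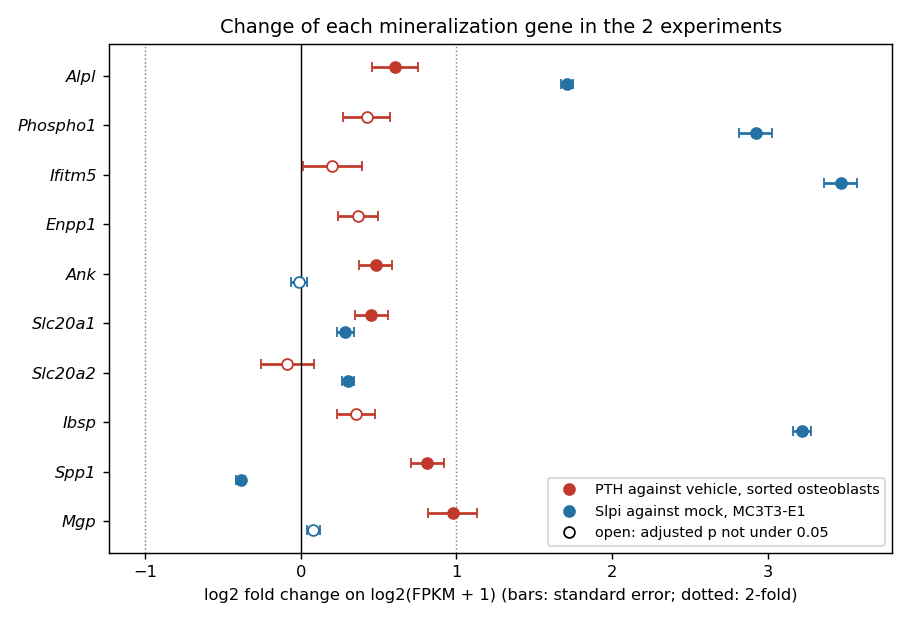
Log2 fold change of each mineralization gene on log2(FPKM + 1), with bars for the standard error, for PTH against vehicle in sorted osteoblasts and *Slpi* against mock in MC3T3-E1 cells; filled points passed an adjusted *p* of 0.05, open points did not, and *Enpp1* was not tested in MC3T3-E1 cells. The PTH estimates lie between -0.09 and 0.98, whereas *Alpl*, *Phospho1*, *Ibsp* and *Ifitm5* lie between 1.71 and 3.47 with *Slpi*.

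Other genes of the pathway were called in both directions in *Slpi*-overexpressing cells, 13 higher and 11 lower of 36 tested, where 31.9% and 28.9% of all genes were, and the counts of the single lists given next are to be read against the same shares. Of these genes, *Smpd3* and *Enpp2* were at least 2-fold higher. *Smpd3*, the sphingomyelinase that frees phosphocholine and without which bone mineralizes poorly, went from 0.849, 0.934 and 0.998 FPKM in mock cells to 18.6, 22.2 and 18.4 FPKM (log2 fold change 3.42, adjusted *p* = 6.22e-08 in limma). With PTH the same gene was at 103, 90.8 and 115 FPKM with vehicle and at 138, 120 and 205 FPKM with PTH (0.55, adjusted *p* = 0.112 in limma). The choline kinase gene *Chka* and *Etnk1* were also higher with *Slpi* (0.31 and 0.47). The annexin genes *Anxa1*, *Anxa2*, *Anxa5* and *Anxa6* fell, with log2 fold changes of -0.45, -0.25, -0.14 and -0.30, as did the choline transporter gene *Slc44a1* (-0.29). Of the 9 vesicle and phosphocholine genes tested, 3 were thus higher and 5 lower.

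**Figure D5:**
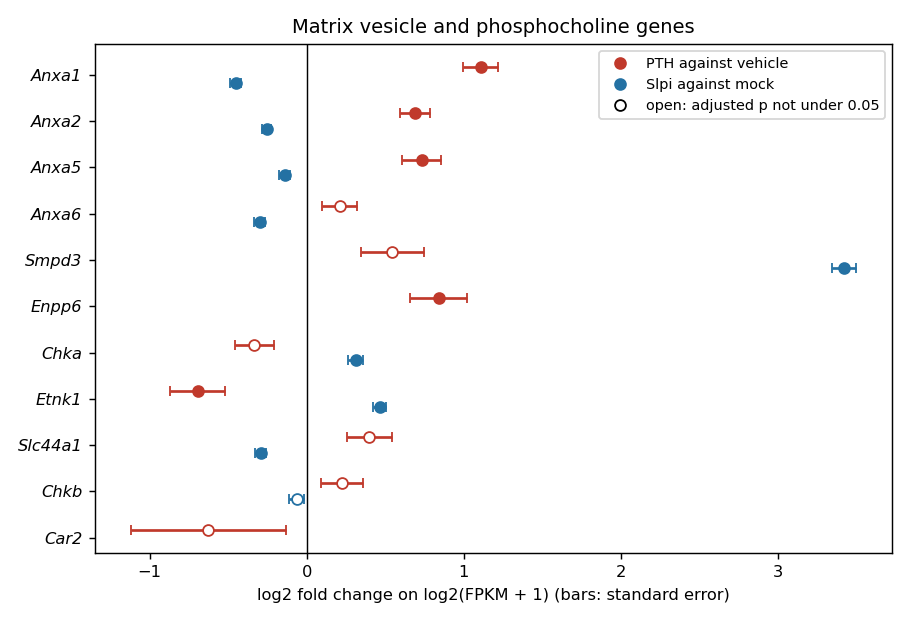
Log2 fold change of 11 matrix vesicle and phosphocholine genes on log2(FPKM + 1), with bars for the standard error, in both experiments; filled points passed an adjusted *p* of 0.05, open points did not, and *Enpp6* and *Car2* were not tested in MC3T3-E1 cells. *Anxa1* is at 1.11 with PTH and at -0.45 with *Slpi*, and *Smpd3* at 3.42 with *Slpi*.

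Of the matrix protein list, 6 were called higher and 3 lower of 13 tested with *Slpi*. *Omd*, *Bglap2*, *Bglap*, *Fam20c*, *Sparc* and *Vkorc1* had log2 fold changes of 0.77, 0.74, 0.61, 0.42, 0.30 and 0.24, and *Bglap* and *Bglap2*, which can share reads, stayed at or below 5.20 FPKM. *Bgn*, *Fetub* and *Ggcx* fell (-0.26, -0.23 and -0.16). Of the phosphate and pyrophosphate list, 4 of 9 tested were called higher and none lower by limma: *Enpp2*, whose product autotaxin makes lysophosphatidic acid (1.41), *Nt5e* (0.93), the pyrophosphatase gene *Ppa1* (0.58) and the mitochondrial phosphate carrier gene *Slc25a3* (0.08, and -0.01 when libraries were rescaled to the same sum). Of the 4 relatives of *Ifitm5* tested, 3 were called lower. *Ifitm1*, *Ifitm2* and *Ifitm3*, antiviral membrane proteins, fell by log2 fold changes of -0.60, -0.33 and -0.48, *Ifitm6* had a value of -0.36 that missed the threshold with overlapping groups, and *Ifitm2*, which lies 4.55 kb from *Ifitm5* on chromosome 7, went from 1019, 1013 and 1016 FPKM to 867, 777 and 783 FPKM. *Phospho2* had a log2 fold change of -0.03 (adjusted *p* = 0.617 in limma), and the intestinal and germ-cell alkaline phosphatase genes *Alpi*, *Akp3* and *Alppl2* were at or below 0.037 FPKM in every library, so that *Alpl* was the only member of that family above this level in both experiments.

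The order of levels differed between the cells, and the values are set side by side without a test because cells, kits and preparation differ. In vehicle-treated osteoblasts the order of the means was *Spp1* (1870 ± 176 FPKM, SD, n = 3), *Ibsp* (1297 ± 138), *Alpl* (202 ± 15.8), *Ifitm5* (183 ± 8.40), *Ank* (53.7 ± 5.85), *Slc20a1* (49.3 ± 4.91), *Mgp* (44.9 ± 3.16), *Phospho1* (26.6 ± 2.07), *Enpp1* (12.2 ± 1.74) and *Slc20a2* (2.22 ± 0.123). The libraries of *Alpl* and *Ifitm5*, of *Ank* and *Slc20a1* and of *Slc20a1* and *Mgp* overlapped, and the other neighbors were apart. In mock MC3T3-E1 cells *Mgp* came first (1803 ± 52.7 FPKM, SD, n = 3), then *Spp1* (749.8 ± 11.4), *Alpl* (52.6 ± 2.12), *Ibsp* (40.1 ± 2.33), *Ank* (33.4 ± 1.58), *Slc20a1* (15.2 ± 0.884), *Slc20a2* (9.62 ± 0.0491), *Ifitm5* (1.76 ± 0.249), *Phospho1* (0.306 ± 0.135) and *Enpp1* (0.06 ± 0.00346), with no overlap between neighbors. With *Slpi*, *Ibsp* moved above *Alpl* and *Ifitm5* above *Slc20a1*, where its libraries overlapped those of *Ank*, whereas *Enpp1* stayed last. After PTH the mean of *Mgp* moved above those of *Ank* and *Slc20a1*, and its libraries overlapped those of both.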

How the data were processed

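The authors mapped 75-base single-end reads to mm10 with TopHat2 2.0.13, Bowtie2 2.2.3 and SAMtools 0.1.19 and deposited one table of FPKM values per library, calculated with Cuffnorm (Cufflinks 2.2.1). The annotation, scaling option and use of strand are not given in the sources used here. The labels give a SMART-Seq v. 4 and KAPA preparation for sorted osteoblasts and a TruSeq stranded preparation for MC3T3-E1 cells, whereas the study's methods name the former for both. FPKM do not give read numbers, so relative depth was taken from the steps between low values.

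Each experiment was fitted alone, 3 libraries against 3, with limma 3.58.1 in R 4.3.3 on log2(FPKM + 1) with a mean-variance trend, for genes that reached an FPKM of 1 in any library, with Benjamini-Hochberg adjustment over all 13004 or 11466 genes. The model was tested on simulated data. The pseudocount understates the fold of low genes. Ratios of 2 genes in a library were compared by two-sided exact permutation tests. The 10 members, the pathway and marker lists, the motifs and the ratios were chosen with earlier results of these data known. Named are all members and the pathway genes called (or the 3 with the smallest *p* where a list had none). Some of the overlapping and adjacent genes are named, and, for each member, at least 1 of the 3 genes with the highest Pearson r. *Smpd3*, *Anxa6*, *Dmp1* and *Sp7* outside their calls, *Slpi* and the marker genes were named after their values were seen. The alternatives were a replicate block, other filters, a pseudocount of 0.1, other variance models, 3 other scalings, a 2-fold rule and leaving out each library. The rule of 2-fold with an adjusted *p* under 0.05 was added after seeing the data. Positions are from GENCODE M21 on mm10 and promoter windows from RefSeq on GRCm38.p6, and the rest of the *Ibsp* window is not reported here. Python 3.11.15, numpy 2.4.6, scipy 1.17.1, pandas 2.3.3 and matplotlib 3.10.9 were used.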

Additional observations from a re-analysis of the deposited data

How the results depend on the processing

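In *Slpi* against mock, the count of mineralization genes called was 7 or 8 in all 15 fits, 7 to 8 over leaving out each library, and 4 under the rule of 2-fold at an unadjusted *p* under 0.05. In PTH against vehicle, 5 members were called. The count was 2 without the mean-variance trend, 0 with an unmoderated linear model (7 at an unadjusted *p* under 0.05, with 1 of all 13004 genes called), 3 under quantile normalization, 3 with libraries rescaled to a common sum and 0 under the 2-fold rule. Leaving out each library gave 0 to 4. The cause of these shifts was not tested. Counted as at least 2-fold at an adjusted *p*, the number was 0 with all libraries and 0 to 1 over leaving out each library, *Mgp* being at 0.88 to 1.14 in these fits. The other pathway genes called with PTH numbered 10, 6 without a filter on low values, and 0 to 10 with each library left out. Among the members and ratios, the signs that turned were of values that missed the threshold. *Slc20a2* with PTH was at 0.026 and *Ifitm5* at -0.053 under quantile normalization, and over leaving out each library they were between -0.18 and 0.041 and between -0.013 and 0.38. *Mgp* with *Slpi* was at -0.10 under quantile normalization (adjusted *p* = 0.049 in limma, within a range of 0.0487 to 0.676 over the alternatives) and -0.013 when rescaled to a common sum, and the estimates of *Ank* with *Slpi* over leaving out each library lay between -0.048 and 0.031. Likewise the log2 difference in the ratio of *Alpl* to *Ank* with PTH ranged from -0.014 to 0.21 and that of *Slc20a1* to *Slc20a2* with *Slpi* from -0.076 to 0.0052.

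Same-numbered libraries deviated together only weakly (r of 0.0294, 0.0735 and 0.102 with PTH, and 0.0385, -0.0523 and -0.000264 with *Slpi*), so the replicate numbers were not taken to pair samples. With a replicate block, 7 members were called with PTH in place of 5, *Ibsp* and *Phospho1* being added, and 7 with *Slpi* as before; other pathway genes called were 15 and 24. Depth limits mainly *Enpp1* and *Phospho1* in mock cells, which lay below 1 FPKM.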

Other observations

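The genes whose levels ran most closely with each member over the 12 libraries, after the mean of each experiment was subtracted, were sought among 10095 genes tested in both experiments. The values are Pearson's r of log2(FPKM + 1), given as a description, since the libraries fall into treated and control groups that these genes share. *Alpl* was closest to *Sp7* (0.998), *Slc8a3* (0.993) and *Lrrc59* (0.993). *Phospho1* and *Ibsp* had the same 3 closest genes, *Abi3*, *Smpd3* and *Pth1r* (0.998, 0.996 and 0.996 for *Phospho1*, and 0.995, 0.995 and 0.994 for *Ibsp*), of which *Abi3* overlaps *Phospho1*. *Pth1r*, the receptor of PTH, was at 15.6, 14.8 and 14.6 FPKM in mock cells and at 78.5, 75.6 and 72.2 FPKM in *Slpi*-overexpressing cells, and at 98.2, 89.8 and 105 FPKM with vehicle and 112, 104 and 147 FPKM with PTH. *Ifitm5* was closest to *Car3* (0.995), a carbonic anhydrase gene at 0.105, 0.053 and 0.087 FPKM in mock and 3.34, 4.21 and 3.58 FPKM in *Slpi*-overexpressing cells, then to *Ppfibp2* and *Apcdd1* (0.994 each).

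*Spp1*, which was higher with PTH and lower with *Slpi*, was closest to *Ctsl* (0.995), the cathepsin L gene, which was at 104, 92.2 and 108 FPKM with vehicle and 162, 149.6 and 163 FPKM with PTH, and at 64.3, 65.0 and 65.1 FPKM in mock and 53.2, 50.4 and 51.5 FPKM in *Slpi*-overexpressing cells. *Cnn3* and *Rgs2* followed (0.981 and 0.980). *Mgp* was closest to *Thbd* (0.978), *Rab27b* (0.971) and *B4galt6* (0.963). For *Enpp1*, *Ank*, *Slc20a1* and *Slc20a2* the closest genes were *Atp6v0d1* (0.983), *Emilin2* (0.977), *Rpl22l1* (0.958) and *Zbed4* (0.962).

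Among the nearest annotated protein-coding neighbors, *Rap1gap*, 11.9 kb from *Alpl* on chromosome 4, was at 2.46, 2.31 and 2.71 FPKM in mock and at 12.8, 13.6 and 12.7 FPKM in *Slpi*-overexpressing cells, a log2 fold change of 2.01 (adjusted *p* = 1.7e-07 in limma), while *Ece1* on the other side of *Alpl* had one of -0.07. In the other direction, *Fbxl7*, 571 kb from *Ank*, had a log2 fold change of -1.005 with *Slpi* (adjusted *p* = 9.16e-06 in limma). In the chromosome 5 cluster, *Dmp1* and *Mepe*, which lie 85.1 kb before and 13.9 kb after *Ibsp*, stayed at or below 1.48 and 0.187 FPKM in every MC3T3-E1 library. *Mepe* in sorted osteoblasts was at 5.94, 4.18 and 3.81 FPKM with vehicle and at 2.18, 1.78 and 4.01 FPKM with PTH.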
